A study of Mus musculus with 38 samples.

Results

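The p300 and Med12 peaks of Phase 1 cells were set against each other, peak by peak. All 49116 p300 peaks and all 39132 Med12 peaks entered, 88248 of the 359759 peaks in the 17 lists of the series, and a peak counted as shared when it overlapped a peak of the other factor by at least 1 bp. This gave 35753 shared sites, 13363 peaks with p300 alone and 3379 peaks with Med12 alone. The cells were Cas9-LP cells, cell lines of lymphoid progenitors derived from fetal liver. The mice of origin lacked Ebf1 and carried Cas9 at Rosa26, so that every group lacks Ebf1, a factor needed for the B-cell fate. LP cells were kept on OP9 stroma without Notch ligand, and Phase 1 cells were cultured on OP9-DLL4, stroma that presents the Notch ligand DLL4. Each Phase 1 list used here came from 2 ChIP-seq samples with antibodies against p300, Med12, RUNX1, CTCF or Notch1 (Notch1-IC, the intracellular domain), and the LP lists from the same design without ligand. A further pair of Med12 lists came from Phase 1 cells that had received a guide RNA, either a control guide (sgCont) or guides against Cbfb, the partner that RUNX proteins need for DNA binding (sgCbfb). For the cells that lost Cbfb the study states that few were available and that noise was high. All results are from cultured Cas9-LP cells and not from thymocytes, and how many lines were used is not known here.

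p300 is a histone acetyltransferase that is recruited by transcription factors to active enhancers and promoters. Med12 belongs to the kinase module of Mediator, the complex that links enhancer-bound factors to RNA polymerase II. Both are brought to chromatin by other proteins rather than by a DNA sequence of their own. RUNX1 and PU.1 are lineage factors of early blood cells, AP-1 is a family of signal-responsive dimers of Fos and Jun proteins, and CTCF is an insulator protein that holds chromatin loops. Notch1-IC does not touch DNA by itself but through RBPJ.

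The lists hold 1 value a peak, the HOMER peak score, combined by the authors from both replicates of a group, and no read counts, so that depth is not known and no spread between replicates can be given. Shares of peaks are therefore printed with 95% Wilson intervals and contrasts as odds ratios with 95% intervals. These cover the counting of peaks only, since peaks are not replicates of a culture. An odds ratio was read as a difference when its interval excluded 1. Ratios of shared over alone within a list were, where score could matter, also matched over 5 equal classes of score (Mantel-Haenszel). Ratios of p300 alone over Med12 alone take peaks from different lists and were not matched on score.

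The centres of 8 peaks show the strings searched for below, each as 200 bases of the GRCm38 reference (RefSeq assembly, plus strand, 5′ to 3′). Capitals mark the string named for each set, which may be on the other strand and then reads as its reverse complement. The Dad1 peak is 1 of the 3 highest-scored shared peaks, and the others were chosen after their values were seen. Apart from the Nrarp peak, they were the highest-scored intronic or intergenic peaks of their class that held the string. The Nrarp peak was the highest-scored such peak with Notch1-IC among genes of the Notch target list only. Unshared ones also had no peak of the other factor within 1 kb and lay outside LTR repeats. Distances are from the nearest start of a gene, negative upstream. A pair of p300-alone peaks without RUNX1 held the AP-1 string, at -2.29 kb from Tcf3 (chr10:80435846-80436045, score 170) and -2.01 kb from Angptl4 (chr17:33783485-33783684, score 154).
Tcf3, p300 alone, AP-1: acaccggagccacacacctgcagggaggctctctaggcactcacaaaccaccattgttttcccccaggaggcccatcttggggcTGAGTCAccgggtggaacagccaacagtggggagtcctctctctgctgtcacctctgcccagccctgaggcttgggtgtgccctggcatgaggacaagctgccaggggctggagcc
Angptl4, p300 alone, AP-1: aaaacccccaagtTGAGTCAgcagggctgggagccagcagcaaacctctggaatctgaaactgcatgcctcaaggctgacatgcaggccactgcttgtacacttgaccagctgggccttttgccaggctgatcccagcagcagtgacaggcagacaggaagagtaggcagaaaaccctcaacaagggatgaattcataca
The highest-scored p300-alone peak with both a CTCF peak and the CTCF consensus lay at -2.81 kb from Dcaf11 (chr14:55557121-55557320, score 142).
Dcaf11, p300 alone, CTCF: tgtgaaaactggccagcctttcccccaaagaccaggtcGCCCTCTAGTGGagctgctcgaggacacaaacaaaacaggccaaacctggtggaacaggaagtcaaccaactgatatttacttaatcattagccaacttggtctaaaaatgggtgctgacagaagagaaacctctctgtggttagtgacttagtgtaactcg
A pair of Med12-alone peaks held the PU.1 string, at -13.6 kb from Khdc1a (chr1:21335949-21336148, score 116) and 18.2 kb from Stoml1 (chr9:58271262-58271461, score 104), and both also held RUNX1.
Khdc1a, Med12 alone, PU.1: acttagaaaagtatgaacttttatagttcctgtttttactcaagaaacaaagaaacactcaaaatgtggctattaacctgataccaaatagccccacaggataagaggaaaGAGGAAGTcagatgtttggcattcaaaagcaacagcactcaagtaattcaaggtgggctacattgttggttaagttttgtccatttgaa
Stoml1, Med12 alone, PU.1: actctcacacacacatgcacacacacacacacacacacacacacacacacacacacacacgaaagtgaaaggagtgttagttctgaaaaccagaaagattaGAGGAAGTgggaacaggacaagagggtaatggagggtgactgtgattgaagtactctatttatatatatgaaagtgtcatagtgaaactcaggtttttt
A pair of shared peaks with RUNX1 held the RUNX string, at 26.3 kb from Dad1 (chr14:54227481-54227680, p300 score 1587) and -46.1 kb from Fam133b (chr5:3497598-3497797, p300 score 1545), the latter with 2 copies.
Dad1, shared, RUNX: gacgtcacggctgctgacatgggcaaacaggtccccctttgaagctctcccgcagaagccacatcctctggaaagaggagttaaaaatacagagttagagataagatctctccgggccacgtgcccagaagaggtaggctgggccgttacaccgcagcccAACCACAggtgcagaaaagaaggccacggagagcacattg
Fam133b, shared, RUNX: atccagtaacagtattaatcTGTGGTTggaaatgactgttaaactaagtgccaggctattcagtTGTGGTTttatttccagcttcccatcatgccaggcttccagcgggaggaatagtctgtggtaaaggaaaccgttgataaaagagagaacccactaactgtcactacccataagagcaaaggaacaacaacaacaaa
A shared peak with Notch1-IC at -7.92 kb from Nrarp, a Notch target that restrains Notch signaling, held the RBPJ string (chr2:25172740-25172939, p300 score 280.1), and had no p300 or Med12 peak in LP.
Nrarp, shared with Notch1-IC, RBPJ: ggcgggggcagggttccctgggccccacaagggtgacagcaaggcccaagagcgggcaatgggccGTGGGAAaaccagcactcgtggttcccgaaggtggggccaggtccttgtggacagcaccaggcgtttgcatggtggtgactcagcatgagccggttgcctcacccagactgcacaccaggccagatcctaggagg

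p300 and Med12 lay mostly on the same sites. Of the p300 peaks 72.8% (interval 72.4% to 73.2%) had a Med12 peak, and of the Med12 peaks 91.4% (91.1% to 91.6%) had a p300 peak. Each shared site held exactly 1 peak of each factor, so that these shares differ only because the lists differ in length. The median distance between the centres was 22.0 bp, and 96.2% of centres lay within 100 bp. At these 35753 sites the scores of the factors ranked alike (Spearman's rho 0.862 across sites, which share cells and genome position and are not independent replicates).

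Peaks without a partner were weak ones in both lists. The median p300 score was 62.0 at shared peaks and 22.3 at p300-alone peaks, and the median Med12 score was 42.8 at shared peaks and 20.9 at Med12-alone peaks. The share of p300 peaks with Med12 was 24.0% (22.8% to 25.2%) in the lowest of 10 equal classes by score (deciles), 81.4% (80.3% to 82.5%) in decile 5 and 98.2% (97.8% to 98.5%) in the highest. For Med12 peaks the share with p300 was 71.8% (70.4% to 73.2%) in the lowest decile and 98.1% (97.7% to 98.5%) in the highest. The lists begin at a score of 15, so a peak of the other factor just under that score is counted as absent, and its part in the unshared classes was not tested.

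**Figure D1:**
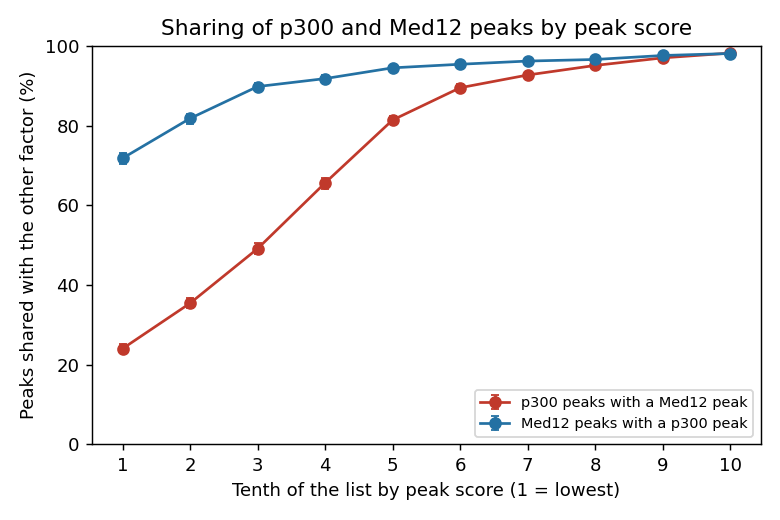
Share of p300 peaks with a Med12 peak (red) and of Med12 peaks with a p300 peak (blue) in each decile of its own list by peak score, with 95% Wilson intervals. The p300 line climbs from 24.0% to 98.2% and the Med12 line from 71.8% to 98.1%.

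A few strong peaks were nevertheless unshared. In the highest decile of the p300 list 90 of 4911 peaks had no Med12 peak, and in that of the Med12 list 73 of 3913 had no p300 peak. The 3 highest-scored p300-alone peaks were at the promoters of Luc7l2 (chromosome 6, 38551215 to 38551553, score 674), of Ddx5, an RNA helicase gene (chromosome 11, 106788898 to 106789236, score 554), and of Sypl (chromosome 12, 32953902 to 32954240, score 458). Each had a Med12 peak close by, at 0.326, 0.0600 and 0.185 kb. The 3 highest-scored Med12-alone peaks were also in promoters. They lay at Eapp (chromosome 12, 54696731 to 54697057, score 566), 0.0420 kb from a p300 peak, at Tex14 (chromosome 11, 87426719 to 87427045, score 553), 3.33 kb away, and at Arid1a, a chromatin remodeler gene (chromosome 4, 133756702 to 133757028, score 449), 0.311 kb away. Of these 6 peaks 5 thus stood beside a peak of the other factor. The Eapp and Tex14 windows hold repeated sequence: 2 of the 4 pieces of 50 bases in each had exact copies elsewhere on the chromosomes, up to 13 and 11 of them, whereas the other 4 peaks had none. The Eapp and Tex14 windows also share a long run of identical bases with each other. What the repeated sequence is, and whether these peaks belong to Eapp and Tex14, was not tested.

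Unshared peaks at promoters often had the other factor next to them. Of 437 Med12-alone promoter peaks 53.8% (49.1% to 58.4%) had a p300 peak within 1 kb, as did 20.1% (18.6% to 21.5%) of 2942 Med12-alone peaks elsewhere. For p300-alone peaks the values were 21.8% (19.3% to 24.4%) of 993 in promoters and 8.16% (7.69% to 8.65%) of 12370 elsewhere. The median distance from an unshared peak to the nearest peak of the other factor was 9.28 kb for p300 and 3.85 kb for Med12.

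Away from promoters and from the other factor, the strongest p300-alone peaks lay at -1.42 kb from Mir142, a microRNA gene of blood cells (chromosome 11, 87755275 to 87755613, score 457), at 7.62 kb from Supt4a in the same region (chromosome 11, 87745003 to 87745341, score 279.9) and at -99.1 kb from Fut8 (chromosome 12, 77138830 to 77139168, score 272). The Supt4a peak alone among them had RUNX1, and it had no p300 or Med12 peak in LP. The Mir142 peak had no Med12 peak in the sgCont list but had one in the sgCbfb list. The strongest such Med12-alone peaks lay at 91.6 kb from Axin2 (chromosome 11, 109011749 to 109012075, score 294), in an intron at 1.68 kb from Ptma (chromosome 1, 86528078 to 86528404, score 254) and at -55.8 kb from Cux1 (chromosome 5, 136623090 to 136623416, score 195). The nearest p300 peak to the Axin2 one was 91.2 kb off, and that Med12 peak was present again in the sgCont list with RUNX1 and without any p300 or Med12 peak in LP. The Axin2 window had no exact copy elsewhere on the chromosomes, but inexact copies and sequence outside the chromosomes were not searched. Whether reads from such sequence made this peak, in any of these lists, was not tested.

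Shared peaks were at promoters more often than unshared ones. The promoter share by the authors' annotation was 23.6% (23.2% to 24.1%) of shared peaks, 7.43% of p300-alone peaks and 12.9% (11.8% to 14.1%) of Med12-alone peaks. The odds ratio of shared over alone was 3.85 (3.59 to 4.13) in the p300 list and 2.08 (1.88 to 2.31) in the Med12 list, and p300 alone over Med12 alone gave 0.540 (0.480 to 0.609). Most of this went with score, since promoter peaks were strong (median p300 score 99.1 at shared promoters and 52.7 at other shared sites). Matched on score, the ratio was 1.20 for p300, with an interval above 1, and 0.943 (0.842 to 1.06) for Med12, so that for Med12 no difference could be shown at like score. With equal numbers of top-scored peaks from each list, p300 alone over Med12 alone turned to 1.18. Introns held 37.0% of shared, 44.6% of p300-alone and 39.5% of Med12-alone peaks, and intergenic DNA 34.4%, 43.2% and 41.0%. Outside promoters the median distance to the nearest start of a gene was 22.3 kb, 23.1 kb and 23.0 kb in the 3 classes.

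**Figure D2:**
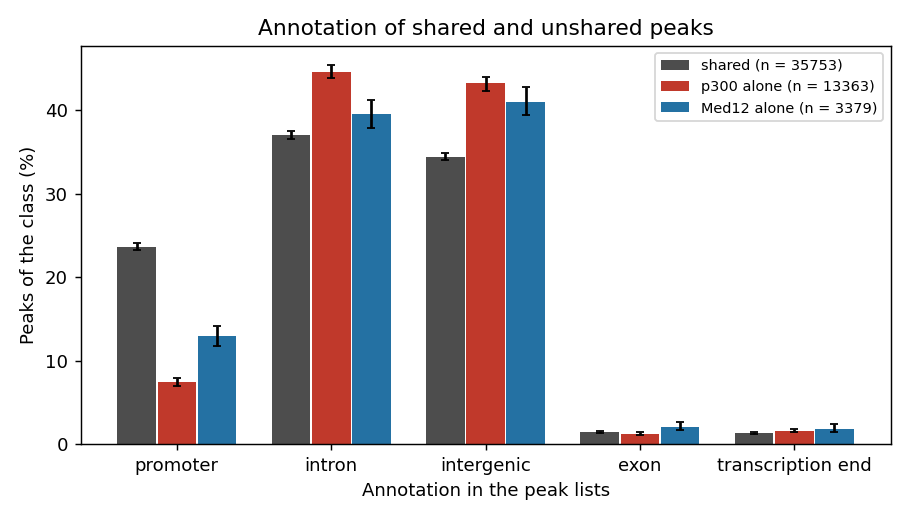
Share of shared (grey, n = 35753), p300-alone (red, n = 13363) and Med12-alone (blue, n = 3379) peaks in each annotation of the lists, with 95% Wilson intervals. Promoters took 23.6% of shared peaks and 7.43% and 12.9% of the unshared classes, with introns and intergenic DNA higher in both unshared classes.

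RUNX1 separated the classes widely. A Phase 1 RUNX1 peak lay on 87.1% (86.8% to 87.5%) of shared p300 peaks and on 19.0% (18.4% to 19.7%) of p300-alone peaks, an odds ratio of 28.8 (27.3 to 30.4). Med12-alone peaks stood between, with RUNX1 at 55.2% (53.5% to 56.9%), against 87.2% of shared Med12 peaks (odds ratio 5.51, 5.12 to 5.94). Set directly against each other, p300-alone peaks had RUNX1 less often than Med12-alone peaks (odds ratio 0.191, 0.176 to 0.207). With the shorter sgCont Med12 list in place of the Med12 list this ratio was 0.873 (0.785 to 0.970), and that of shared over alone within the Med12 list 32.1 (27.8 to 36.9).

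The gap was smaller but kept its direction at like score. Matched on score the odds ratio was 13.4 (12.7 to 14.2) for p300 and 2.30 (2.12 to 2.49) for Med12. In the lowest decile of the p300 list RUNX1 was at 67.7% (65.0% to 70.3%) of 1177 shared and 14.2% (13.2% to 15.4%) of 3735 unshared peaks, and in the highest decile at 98.9% (98.6% to 99.2%) of 4821 and 31.1% (22.5% to 41.3%) of 90. In the lowest decile of the Med12 list the values were closer, 46.8% (45.0% to 48.6%) of 2812 shared and 38.1% (35.3% to 41.0%) of 1102 unshared peaks. Read from the other side, 81.1% of the 38399 RUNX1 peaks held both p300 and Med12, 6.65% p300 only, 4.90% Med12 only and 7.34% neither. The median RUNX1 score was 52.7 where both lay, 21.3 with p300 only, 26.7 with Med12 only and 20.2 with neither.

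**Figure D3:**
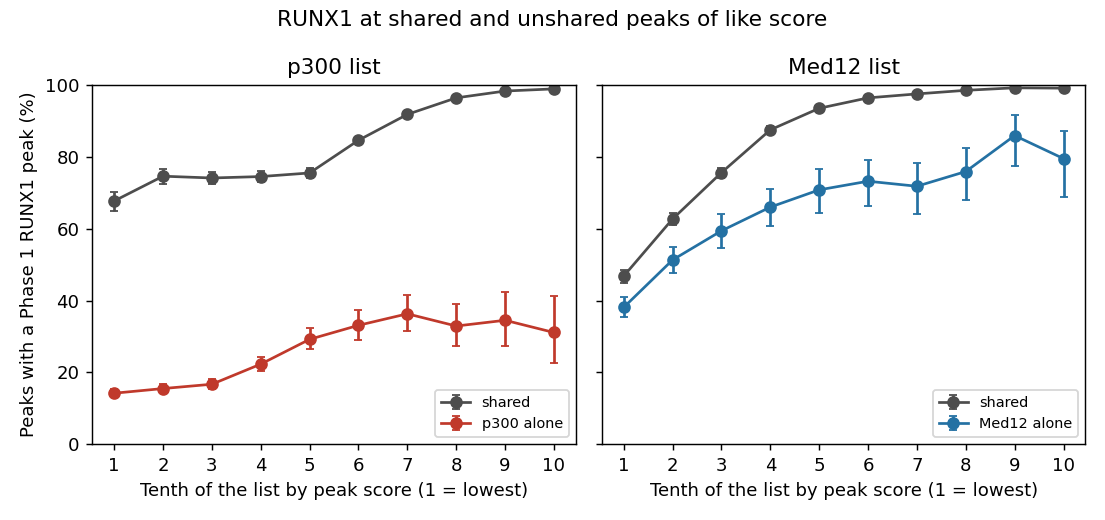
Share of peaks with a Phase 1 RUNX1 peak in each decile of the p300 list (left) and the Med12 list (right) by peak score, for shared peaks (grey) and unshared peaks (red or blue), with 95% Wilson intervals. Shared peaks lie above unshared ones in all deciles of both lists, from 67.7% against 14.2% in the lowest p300 decile and 46.8% against 38.1% in the lowest Med12 decile.

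CTCF lay on the classes in another way. CTCF peaks covered 15.4% of shared p300 peaks and 15.7% (15.1% to 16.3%) of p300-alone peaks (odds ratio 0.975, 0.923 to 1.03), and 9.26% (8.33% to 10.3%) of Med12-alone peaks, fewer than of p300-alone peaks (odds ratio of p300 alone over Med12 alone 1.83, 1.61 to 2.07). Matched on score, CTCF was less frequent at shared than at unshared p300 peaks (odds ratio 0.578, 0.539 to 0.620). The direction was not stable, since the ratio of shared over alone was 1.24 with peaks of a score of at least 30 only and 2.42 with the sgCont Med12 list in place of the Med12 list. Behind these near-equal shares the classes differed among peaks without RUNX1 and in position. Among p300 peaks without RUNX1, CTCF was at 8.74% (7.96% to 9.59%) of shared and 15.3% (14.6% to 16.0%) of unshared peaks.

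The CTCF peak was also closer to the centre where p300 was alone. At overlaps with p300-alone peaks the median distance between centres was 65.0 bp and 72.0% (70.1% to 73.9%) lay within 100 bp, and at shared peaks it was 105 bp with 47.9% (46.6% to 49.2%) within 100 bp. Counting only CTCF centres within 100 bp gave 7.37% of shared and 11.3% of p300-alone peaks (odds ratio 0.623, 0.583 to 0.666). The CTCF consensus was in the window of 15.8% (14.3% to 17.4%) of the p300-alone peaks with a CTCF peak and of 3.55% (3.09% to 4.07%) of such shared peaks. CTCF peaks under p300 only had a median CTCF score of 184, compared with 85.5 under both factors, 78.3 under Med12 only and 63.5 under neither.

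**Figure D4:**
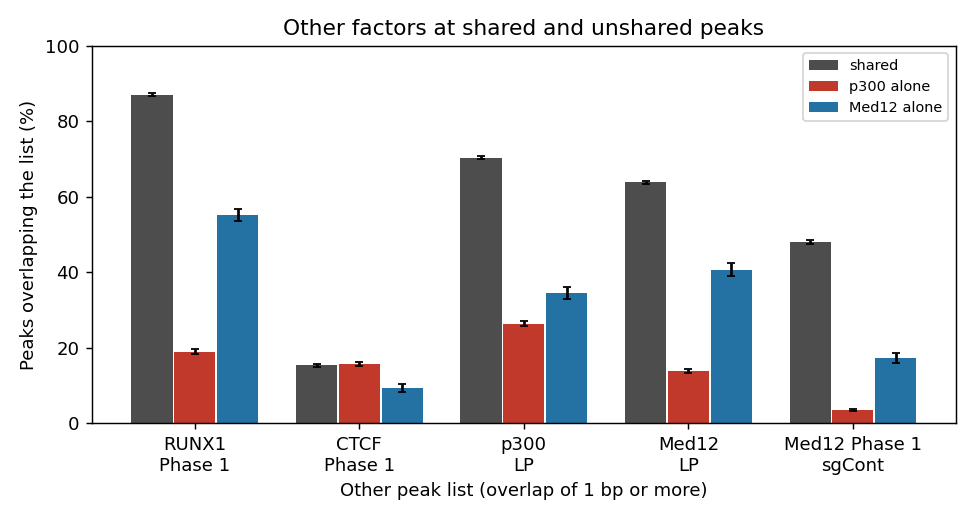
Share of shared (grey), p300-alone (red) and Med12-alone (blue) peaks that overlap each other list by 1 bp or more, with 95% Wilson intervals. RUNX1 is at 87.1% of shared, 55.2% of Med12-alone and 19.0% of p300-alone peaks, and CTCF at 15.4%, 9.26% and 15.7%.

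The DNA strings divided the unshared classes further. Windows of 200 bp around the centre were searched on both strands for TGTGGTT or TGCGGTT (RUNX), TGACTCA (AP-1), GAGGAAGT (PU.1), CCGGAAGT (ETS), GTGGGAA (RBPJ), GGGGCGGGG (SP1) and the CTCF consensus. The PU.1 and ETS strings share the core GGAAGT and differ in the letters before it, so that no stretch counts for both. Windows 2 kb to each side served as flanks, and the share of 32851 RefSeq promoters that held a string in 200 bases was taken as well. A match says only that the letters are there.

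The AP-1 string was most frequent at p300-alone peaks. It was in 21.8% (21.1% to 22.5%) of p300-alone windows, 11.8% (11.5% to 12.1%) of shared windows and 5.84% (5.09% to 6.68%) of Med12-alone windows, with 3.51% to 3.64% in the flanks of these classes and 3.66% in promoters. The odds ratio of p300 alone over Med12 alone was 4.51 (3.88 to 5.23), and that of shared over alone within the p300 list was 0.479 (0.455 to 0.505), or 0.477 (0.446 to 0.510) matched on score. The contrast lay in the lower 3 of the 5 score classes. In the highest class the string was in 8.72% (8.17% to 9.30%) of shared and 6.72% (4.18% to 10.6%) of p300-alone windows, and in the class below in 12.9% and 12.2%. The share was also high at shared peaks that lacked RUNX1. Outside promoters and without a RUNX1 peak it was 26.1% (25.3% to 27.0%) at p300-alone and 26.4% (25.1% to 27.8%) at shared sites (odds ratio of shared over alone 1.02 with an interval that spans 1, and 0.867 with an interval below 1 when matched on score). At Med12-alone sites of the same kind it was 7.09% (5.87% to 8.55%).

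PU.1 ran the other way. The PU.1 string was in 15.2% (14.0% to 16.4%) of Med12-alone windows, 8.02% (7.75% to 8.31%) of shared windows and 3.83% (3.52% to 4.17%) of p300-alone windows, with 1.11% to 1.26% in flanks and 2.06% in promoters. The odds ratio of p300 alone over Med12 alone was 0.223 (0.196 to 0.254). The ratio of shared over alone matched on score was 3.08 (2.76 to 3.45) for p300 and 0.488 (0.438 to 0.544) for Med12. In the highest of the 5 Med12 score classes it was in 8.62% (8.01% to 9.27%) of shared and 6.75% (3.81% to 11.7%) of unshared windows. These intervals overlap, so no difference could be shown there. Outside promoters and without RUNX1 the shares were 17.9% (16.0% to 20.0%) at Med12-alone, 5.41% (4.77% to 6.13%) at shared and 3.70% (3.35% to 4.08%) at p300-alone peaks. No PU.1 ChIP list was analysed here, so whether PU.1 itself lay on these sites was not tested.

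The other strings each had an order of their own. The RUNX string was in 22.2% (21.8% to 22.7%) of shared, 23.0% (21.6% to 24.5%) of Med12-alone and 15.4% (14.8% to 16.0%) of p300-alone windows, with 5.49% to 5.62% in flanks and 4.48% in promoters. Among peaks without a RUNX1 peak outside promoters it was still in 20.1% (18.1% to 22.2%) of Med12-alone windows, compared with 11.7% (10.8% to 12.7%) of shared and 13.1% (12.4% to 13.7%) of p300-alone ones (odds ratio of p300 alone over Med12 alone 0.599, 0.519 to 0.690). The CTCF consensus was in 2.54% (2.29% to 2.83%) of p300-alone, 0.573% (0.500% to 0.657%) of shared and 0.533% (0.338% to 0.841%) of Med12-alone windows, and in 0.463% of promoters. The ETS and SP1 strings were highest at shared peaks (2.53% and 6.09%, against 0.689% and 2.19% at p300-alone peaks), and within the p300 list no difference could be shown at like score (odds ratios of shared over alone 1.16, 0.897 to 1.49, and 1.15, 0.993 to 1.34). In the Med12 list the ETS ratio at like score was 1.56 (1.06 to 2.28). Promoters held them at 2.68% and 9.68%. The RBPJ string was slightly above its flanks in all classes. It was in 5.26% (5.03% to 5.50%) of shared, 5.66% (5.28% to 6.06%) of p300-alone and 4.89% (4.21% to 5.67%) of Med12-alone windows. Flanks held it at 3.98% to 4.10% and promoters at 4.28%.

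**Figure D5:**
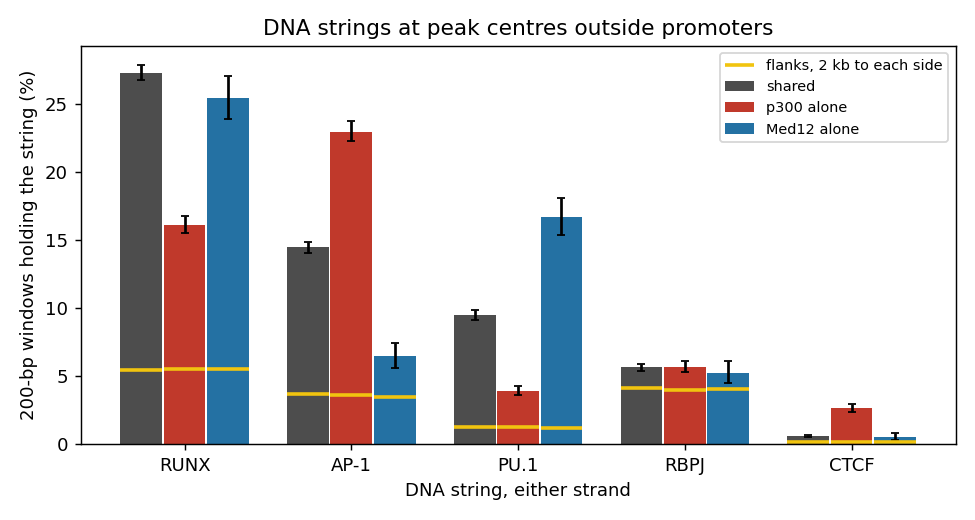
Share of 200-bp windows outside promoters that hold each DNA string, for shared (grey), p300-alone (red) and Med12-alone (blue) peaks, with 95% Wilson intervals and the flank level as a yellow line. AP-1 is highest at p300-alone peaks (23.0%), PU.1 at Med12-alone peaks (16.7%), and RBPJ is alike in all 3 classes (5.65%, 5.69% and 5.24%).

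Repeats differed as well. LTR repeats, the ends of endogenous retroviruses, held 13.1% (12.0% to 14.2%) of Med12-alone peaks, 7.25% (6.99% to 7.52%) of shared peaks and 7.59% (7.15% to 8.05%) of p300-alone peaks. At like score the ratio of shared over alone was 0.619 (0.552 to 0.694) in the Med12 list and 1.48 (1.35 to 1.62) in the p300 list, where it was 0.952 (0.883 to 1.03) without matching. The ERVK family accounted for 6.04% (5.28% to 6.89%) of Med12-alone, 1.99% of shared Med12 and 1.94% of p300-alone peaks, and in the Med12 list the ratio of shared over alone was 0.330 (0.277 to 0.393) at like score. The PU.1 string was in 29.7% (25.6% to 34.1%) of the 441 Med12-alone windows in LTR repeats and in 13.0% (11.8% to 14.2%) of the others, and the odds ratio of p300 alone over Med12 alone outside LTR repeats was 0.233 (0.202 to 0.270). SINE B2 repeats held 1.98% (1.76% to 2.23%) of p300-alone peaks and 0.847% (0.758% to 0.948%) of shared peaks. Reads that fit several places were kept in mapping up to a set number of places and dropped beyond it, so counts in repeats are uncertain.

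Notch1-IC lay mostly where both coactivators lay. Of the 152 Phase 1 Notch1-IC peaks, 129 (84.9%, 78.3% to 89.7%) held p300 and Med12, 3 held p300 only, 2 Med12 only and 18 neither. Since 1 Notch1-IC peak touched only the p300 peak of a shared site, in the p300 list 130 shared peaks and 2 p300-alone peaks had Notch1-IC (odds ratio 24.4, conditional exact interval 6.61 to 203), and in the Med12 list 129 and 2 (6.11, 1.66 to 51.0). The sites with Notch1-IC were strong ones, at median percentiles of 96.6 by p300 score and 96.8 by Med12 score. Matched on score the ratios were 3.76 (0.715 to 19.7) and 1.77 (0.409 to 7.63), so that with 2 unshared peaks a list no difference could be shown at like score. Of the 129 sites with both, 127 had RUNX1, 103 had both p300 and Med12 in LP and 19 had neither. Of the 18 peaks with neither factor none had RUNX1, and 12 formed 6 pairs with equal scores at different places, as on chromosomes X and Y near G530011O06Rik.

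Genes of the lists had Notch1-IC in the shared class at every such site but 1. Hes1, a repressor gene that Notch induces, had 2 sites, at its promoter with a p300 score of 170.2 and a Med12 score of 178, and at -1.24 kb with 298 and 185. Dtx1, which encodes the Notch regulator Deltex, had 2 intronic sites, with p300 scores of 217 and 141 and Med12 scores of 241 and 109, and neither had a coactivator peak in LP. Il2ra, the CD25 gene that marks the step to DN2, had 1 site at -19.4 kb with scores of 565 and 291, also without a peak in LP. Notch1 (115 and 116, in an intron) and Nrarp (280.1 and 182) had 1 new site each as well. Those of Notch3 (268 and 193) and of Zap70 (1145 and 396), a T-cell receptor kinase gene, had both factors in LP already. Sites were assigned by nearest gene. A stronger Notch1-IC site upstream of Notch1 (1206 and 589, with both factors in LP) was nearest to Gm35978 and is not counted for Notch1. Rpl23, a ribosomal protein gene, had 1 at its promoter (247 and 113). The exception, at -40.5 kb from Runx3, had neither factor, with the nearest p300 peak 0.172 kb and the nearest Med12 peak 0.180 kb away. The Notch1-IC peak at the Sypl promoter held Med12 (score 208) but not p300, and the strong p300-alone peak named above lay 0.194 kb from it.

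Most p300-alone peaks had no coactivator peak in LP cells, which see no Notch ligand. Of the 13363 p300-alone peaks 73.0% (72.3% to 73.8%) had neither factor in LP, 13.2% had p300 only and 13.2% had both. Of shared peaks 28.5% (28.0% to 28.9%) had neither and 62.6% had both in LP, and of Med12-alone peaks 54.3% (52.6% to 56.0%) had neither, 29.4% had both, 11.3% Med12 only and 4.97% p300 only. The odds ratio for an LP p300 peak, shared over alone, was 6.62 (6.33 to 6.93), and 2.86 (2.72 to 3.02) at like score. For an LP Med12 peak in the Med12 list it was 2.56 (2.38 to 2.75), and 1.05 (0.970 to 1.14) at like score. The AP-1 string was in 27.4% (26.5% to 28.3%) of p300-alone windows with neither factor in LP and in 6.71% (5.94% to 7.57%) of those with a p300 or Med12 peak in LP. At shared windows the values were 23.1% (22.3% to 23.9%) and 7.30% (6.98% to 7.62%), so that this split ran alike in both classes.

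The classes could be checked in a Med12 ChIP they had not used. The sgCont Med12 list of Phase 1 cells, with 19053 peaks, held 47.9% (47.4% to 48.5%) of shared p300 peaks and 3.50% (3.20% to 3.83%) of p300-alone peaks (odds ratio 25.4, 23.1 to 27.9, and 5.60, 5.05 to 6.22, at like score). It found again 48.0% (47.5% to 48.5%) of shared Med12 peaks and 17.2% (16.0% to 18.5%) of Med12-alone peaks (odds ratio 4.45, 4.06 to 4.88, and 1.42, 1.26 to 1.61, at like score). Among the 5 Med12 score classes the shares overlapped in class 2 (13.0% of shared and 12.0% of unshared peaks) and class 3 (40.3% and 41.3%), and were apart in the highest (95.5% and 79.4%). With the sgCont list in place of the Med12 list, 92.4% (92.0% to 92.8%) of its peaks had p300, compared with 91.4% above.

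By nearest gene, most genes with an unshared peak also had a shared one, though less often than genes with any peak. Of 16543 genes that were nearest to any peak, 14396 had a shared peak, 7674 a p300-alone peak and 2794 a Med12-alone peak. Among the genes with a p300-alone peak 78.0% also had a shared one, and among those with a Med12-alone peak 82.0%, against 87.0% of all 16543. The last value includes genes with shared peaks only, which raise it by definition. The genes with the most shared peaks were Mir6388 (35), Tbl1xr1 (31), Pik3r1 (30), Gm17746 (28) and Tns3 (28). Those with the most p300-alone peaks were Foxp1, a forkhead factor gene (16, beside 24 shared), and 4921525O09Rik, 9430078K24Rik, Cln8 and Ly86 (12 each). Of the 16 at Foxp1 1 had RUNX1, as had 20 of its 24 shared peaks. Those with the most Med12-alone peaks were Ptprd (7, beside 2 shared and none of p300 alone), and Bcl2l11, Gm33340, Hmga2-ps1 and Trim24 (5 each). Such counts also grow with the length of a gene's surroundings.

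The gene lists were set beside the shares over all peaks, 72.8% for p300 and 91.4% for Med12, and beside 87.1% of shared p300 peaks with RUNX1 and 28.5% with neither factor in LP. Peaks around 1 gene are not independent, and the lists were chosen with results known, so the intervals are a description. The list of Notch targets has 12 genes, of which Tcf7, Gata3, Myc, Hey1, Ptcra and Hes5 were nearest to no Phase 1 Notch1-IC peak. The study shows Notch1-IC at enhancers of Tcf7 and Gata3. It also reports more Phase 1 Notch1-IC peaks than the 152 in the list used here, so absence from this list is not absence from the study's set. Of the 64 p300 peaks at the 12 genes of this list 53 had Med12 (82.8%, 71.8% to 90.1%), and 25 of these 53 had neither factor in LP. Of the 183 at 14 T-lineage transcription factor genes 140 did (76.5%, 69.9% to 82.1%). By peaks of all classes they were led by Runx1 (23 shared, 11 p300 alone), Runx3 (15, 6 and 4 Med12 alone) and Tcf12 (14, 5 and 2). Of the 60 at 16 T-cell receptor and signaling genes 51 did (85.0%, 73.9% to 91.9%), each of the 51 with RUNX1, and Thy1 had 11 shared and no unshared peaks. Progenitor genes had 77 of 94 (81.9%, 72.9% to 88.4%), with Mef2c (17 shared) and Erg (15) in front. Meis1, a stem-cell homeobox gene, had 2 shared and 6 p300-alone peaks, and was named after its values were seen. The AP-1 genes had 47 of 56 (83.9%, 72.2% to 91.3%), led by Jun (14) and Fos (8), and the genes of Mediator subunits and acetyltransferases 54 of 66 (81.8%, 70.9% to 89.3%), led by Med13l (25).

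B-lineage genes had the lowest share, 17 of 29 (58.6%, 40.7% to 74.5%), with an interval that spans 72.8%, and Pax5, the B-cell commitment factor, had 1 p300-alone peak and no shared one (named after its values were seen). Myeloid genes had 33 of 43 (76.7%, 62.3% to 86.8%), led by Irf8 with 13 shared and 8 p300-alone peaks, and 6 of their 39 Med12 peaks were without p300. Ribosomal protein genes, matched by symbol, had 145 of 187 (77.5%, 71.0% to 82.9%) and, in the Med12 list, 149 of 152 with p300 (98.0%). For the other lists the share of Med12 peaks with p300 ran from 84.6% for myeloid genes to 98.2% for the Mediator and acetyltransferase genes. Outside the ribosomal protein genes, the Med12-alone peaks at promoters of list genes were at Notch1 (at -0.0210 kb, score 88.4), Lck (41.0), a T-cell receptor kinase gene, Itgam (40.2), of the myeloid list, Foxo1 (34.9), of the B-lineage list, and Cd3e (24.1). Each had RUNX1, and these too were named after their values were seen, as was Gata3. Gata3, which drives T-lineage commitment, had 15 shared peaks, all with RUNX1 and 8 of them without either factor in LP, 3 p300-alone peaks and 1 Med12-alone peak.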

How the data were processed

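Members, gene lists and strings were chosen with earlier results of these data known. Per the study's methods the authors mapped reads to mm10 with Bowtie 1.1.1, keeping reads with several places up to a set number of them. They called peaks with HOMER against input, combined 2 replicates a group by IDR and kept normalized peak scores of at least 15. The deposited score has no unit, and its scale differs between lists, so only ranks were compared between factors. The labels and the methods differ on sequencer and read length. The deposited distance to the nearest start is in bp. Gene symbols were matched from RefSeq accessions (97 p300 and 69 Med12 peaks had none). Here, peaks were overlapped (1 bp), and Wilson, Woolf, exact (counts under 5) and Mantel-Haenszel intervals were computed with scipy 1.17.1, pandas 2.3.3 and numpy 2.4.6 under Python 3.11.15, tested on simulated data. No peak passed a chromosome end of GRCm38.p6, the assembly behind mm10. String searches left out 18 peaks on unplaced sequences. Named peaks were the 3 highest-scored of each class, and of unshared peaks outside promoters over 1 kb from the other factor. Named genes were those with Notch1-IC, the 5 with most peaks of a class and up to 3 a list.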

Additional observations from a re-analysis of the deposited data

Results flagged for a closer look

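The Med12 list of cells that lost Cbfb, which no comparison of classes above uses, held 8.40% (7.94% to 8.88%) of the 13363 p300-alone peaks, more than the 3.50% (3.20% to 3.83%) in the sgCont control list, although at shared p300 peaks it held less (37.8% against 47.9%). A higher share in the sgCbfb list was not confined to p300-alone peaks. At shared p300 peaks without RUNX1 it held 9.96% and the sgCont list 4.80%, but with RUNX1 41.9% and 54.3%. Of all Med12-alone peaks the values were 20.6% and 17.2%, and of those with RUNX1 25.1% and 25.5%. Of p300-alone peaks with RUNX1 they were 17.2% and 11.4%. Among p300-alone peaks the difference lay mainly at CTCF. Of the 2100 p300-alone peaks with a CTCF peak the sgCbfb list held 31.0% (29.1% to 33.0%) and the sgCont list 8.48% (7.36% to 9.74%), and of the 9162 with neither RUNX1 nor CTCF 2.49% and 0.982%. With centres within 100 bp in place of 1 bp, a rule added after the data were seen since the peaks of the lists differ in width (311 bp and 255 bp), the values at p300-alone peaks were 9.03% and 4.93%, and with CTCF 35.2% and 9.31%. The sgCbfb ChIP was made from few cells with high noise according to the study, and the part of noise in this was not tested.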

How the results depend on the processing

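No paired analysis was possible because each list combines both replicates, and for the same reason none could be left out. Of 125 values of odds ratios under alternatives, 105 kept their direction and their side of 1, among them every one for RUNX1, for the LP p300 peak and for the sgCont list, though with the sgCont list RUNX1 moved to 0.873 for p300 alone over Med12 alone and to 32.1 within the Med12 list. The share of p300 peaks with Med12 was 70.3% at a minimum score of 30, 70.1% with centres within 100 bp, 71.8% with at least 50% overlap, 83.7% with equal numbers of top-scored peaks, 74.7% with unshared peaks over 1 kb away, 35.8% with the shorter sgCont list and 68.8% without promoters. The share of Med12 peaks with p300 was 92.8%, 87.9%, 90.1%, 83.7%, 93.3%, 92.4% and 90.3% in the same order. CTCF at shared over alone p300 peaks turned to 1.24 at a minimum score of 30 and 2.42 with the sgCont list, and was 0.631 with centres, 0.946 with 50% overlap, 0.830 with equal numbers, 0.756 without promoters, 0.578 matched on score and 0.567 matched on score and promoter. With the sgCont list CTCF also turned to 0.762 within the Med12 list and to 0.329 for p300 alone over Med12 alone. Notch1-IC fell within counting error when matched on score (3.76 and 1.77) or on score and promoter (3.77 and 1.62), as did the LP Med12 peak (1.05 and 1.06). The promoter ratio in the Med12 list turned to 0.988 with centres, 0.877 with the sgCont list and 0.943 matched on score, and that of p300 alone over Med12 alone to 1.18 with equal numbers. The causes were not tested. Under 5 alternatives added after the data were seen, the RUNX, CTCF, PU.1 and AP-1 strings kept their contrasts between the unshared classes. ETS turned to 1.07 over 1 kb away, RBPJ passed at 1.30 at a minimum score of 30, and SP1 was 0.801 without promoters, 0.881 over 1 kb away and 1.31 outside promoters without RUNX1.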
